A study of Mus musculus with 16 samples.

Results

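The genes examined encode the machinery that licenses and copies DNA in S phase. They were 42 listed symbols, chosen by function: the MCM helicase and the factors that load and fire it, the replicative polymerases, the sliding clamp and its loader, the enzymes of flap removal and ligation, single-stranded DNA binding protein, the enzymes that supply deoxynucleotides, and factors that rebuild chromatin behind the fork. A gene was measured through a probe set annotated to its symbol alone, and where several existed through the one with the highest mean over all arrays. On that rule 41 of the 42 were measured, among 12394 genes on the array, and Chaf1a was not analysed here. The rule itself uses function and the brightness of the probe set, but the list was drawn up with earlier results of these data known.

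The values come from 16 Affymetrix 3' expression arrays, 1 for each mouse, of macrophages sorted from gliomas by a gate for CD11b+ Gr1- cells. All mice were of mixed background and of the genotype Nestin-Tv-a;Ink4a/Arf-/-, in which the receptor for an avian virus is expressed in Nestin-positive cells and the Ink4a/Arf tumour suppressor locus is lost. Tumours were started at 5 to 6 weeks of age with DF-1 cells, a chicken fibroblast line, producing the virus RCAS-PDGF-B-HA, so every tumour was driven by the same growth factor. The 8 BLZ945 mice received BLZ945, which blocks the kinase of the CSF-1 receptor that macrophages depend on, and the 8 Vehicle mice received its vehicle, 20% captisol, each by daily gavage over 7 days. A dose of 200 mg is labelled, with no body weight. The Vehicle group held 4 female and 4 male mice, 4 of them 11.29, 2 of them 11.43 and 2 of them 12.29 weeks old. The BLZ945 group held 5 female and 3 male mice, 4 of them 11.29 and 4 of them 13.14 weeks old. The labelled initial tumour volume, given without a unit, ran from 11.9 to 27.3 in the 6 Vehicle mice that have one and from 41.3 to 132.3 in the 8 BLZ945 mice, and the stated enrolment range was 4.5 to 40 mm3.

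Replication is licensed when the origin recognition complex, CDC6 and CDT1 load the MCM hexamer on DNA in G1 phase. Cyclin E with CDK2 and the kinase CDC7 with DBF4 then fire the origin by recruiting CDC45 and GINS to the helicase, and the polymerases follow behind the clamp. Most of these genes are transcribed as cells enter S phase under the E2F transcription factors, which are held back by the retinoblastoma family. Tissue macrophages and microglia can divide in place, and signalling through the CSF-1 receptor is known to support both their survival and their division.

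Stretches upstream of 9 of these genes are shown because an E2F word was frequent among the members, which the listing rule did not use. They are the 180 bases that end at the base before the annotated start of transcription, 5' to 3' on the strand of the gene, from RefSeq on GRCm38.p6. Capitals mark matches, on either strand, to 4 E2F words and to the CCAAT box. The first E2F word is TTCCCGC, the next is TTGGCGC, another is TTGCCGC, and the last is TTCGCGC. Neighbouring matches can overlap, as in Mcm5, Mcm6 and Prim1, and then form 1 run of capitals. The first 7 belong to genes that fell and hold an E2F word, Tk1 fell and holds none here, and Pola2 did not pass the test and holds none here.

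Mcm5 (chr8:75109329-75109508, plus strand): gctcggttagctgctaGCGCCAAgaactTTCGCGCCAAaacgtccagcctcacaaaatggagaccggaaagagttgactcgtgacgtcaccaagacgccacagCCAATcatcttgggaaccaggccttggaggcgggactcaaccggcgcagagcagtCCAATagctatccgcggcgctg

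Mcm6 (chr1:128359706-128359885, minus strand): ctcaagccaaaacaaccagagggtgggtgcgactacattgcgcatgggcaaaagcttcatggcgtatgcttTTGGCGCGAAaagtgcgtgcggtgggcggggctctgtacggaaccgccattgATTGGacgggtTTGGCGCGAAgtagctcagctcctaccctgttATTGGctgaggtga

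Cdc6 (chr11:98907971-98908150, plus strand): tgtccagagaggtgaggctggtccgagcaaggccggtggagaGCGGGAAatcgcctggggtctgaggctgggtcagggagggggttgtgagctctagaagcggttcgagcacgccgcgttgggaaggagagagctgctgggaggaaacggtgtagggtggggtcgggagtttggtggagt

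Pola1 (chrX:93632156-93632335, minus strand): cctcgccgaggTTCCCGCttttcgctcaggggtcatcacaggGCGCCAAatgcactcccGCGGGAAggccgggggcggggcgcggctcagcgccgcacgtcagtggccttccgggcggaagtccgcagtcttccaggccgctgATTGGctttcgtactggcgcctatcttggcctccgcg

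Prim1 (chr10:128015035-128015214, plus strand): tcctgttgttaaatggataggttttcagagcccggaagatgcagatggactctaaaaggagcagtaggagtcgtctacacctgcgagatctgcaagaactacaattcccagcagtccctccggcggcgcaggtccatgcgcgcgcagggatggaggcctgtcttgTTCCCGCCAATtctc

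Rrm1 (chr7:102441515-102441694, plus strand): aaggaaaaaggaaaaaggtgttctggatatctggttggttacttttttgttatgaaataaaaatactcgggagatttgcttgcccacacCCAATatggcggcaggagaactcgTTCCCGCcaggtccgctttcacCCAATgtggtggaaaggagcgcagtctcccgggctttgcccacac

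Uhrf1 (chr17:56303157-56303336, plus strand): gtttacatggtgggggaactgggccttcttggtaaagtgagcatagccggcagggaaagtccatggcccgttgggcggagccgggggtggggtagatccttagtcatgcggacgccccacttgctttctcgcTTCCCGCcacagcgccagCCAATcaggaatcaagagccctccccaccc

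Tk1 (chr11:117826015-117826194, minus strand): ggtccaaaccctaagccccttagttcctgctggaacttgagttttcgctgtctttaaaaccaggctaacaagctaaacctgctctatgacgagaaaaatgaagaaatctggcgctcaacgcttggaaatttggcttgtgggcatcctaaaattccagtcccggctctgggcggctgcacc

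Pola2 (chr19:5964207-5964386, minus strand): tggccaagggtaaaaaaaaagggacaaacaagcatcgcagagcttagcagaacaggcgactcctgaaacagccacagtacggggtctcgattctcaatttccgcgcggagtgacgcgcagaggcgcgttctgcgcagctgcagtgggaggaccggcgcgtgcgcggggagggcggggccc

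In the window of 300 bases from 250 before to 50 after the start, an E2F word was found in 22 of the 35 members with an entry in the table, or 62.9%. The share was 17.2% of the 9888 tested genes with an entry and 9.57% of all 32851 windows. By outcome, the word was present in 19 of 29 members that fell and in 3 of 6 that did not pass. A CCAAT box was found in 54.3% of members and 42.3% of tested genes. The CHR element, written TTTGAA or in its other form TTCGAA, which mark genes of later cell cycle phases, were found in 22.9% of members and 17.3% of tested genes. In the 250 bases before the start alone, an E2F word was found in 15 of 35 members, or 42.9%, and in 14.2% of tested genes. A match is a description of letters and not of a bound site. Mcm4, Gins1, Ccne2, Prim2, Pole and Rfc2 have no entry in the table.

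Sorted samples of BLZ945 mice had lower transcript levels for most of the replication machinery. Of the 41 members, 34 were lower in BLZ945 at a Benjamini-Hochberg adjusted p under 0.05 in limma over all genes, and 0 were higher. The same test called 5.34% of all genes lower and 2.6% higher. The median member difference, BLZ945 minus Vehicle, was -0.91 on the log2 scale against 0.07 over all genes, and 40 of 41 members lay below 0 against 38.9% of all genes. In 18 members every BLZ945 mouse lay below every Vehicle mouse, which held for 1.03% of all genes. The fall was at least 2-fold in 19 members, against 1.76% of all genes, and smaller in the other 15 that passed. The 7 members that did not pass were Pola2, Pold1, Rfc1, Rfc2, Rfc3, Rfc5 and Tyms. An exact permutation test of each gene over all 12870 labellings of the mice, adjusted over all genes, called 31 members lower, all of the 34 but Mcm10, Fen1 and Rpa2. The share of all genes that the exact test called lower is not given here. These are bulk samples of sorted cells, so fewer cells in S phase and less RNA in each such cell cannot be told apart. Transcripts of glioma cells were present in them as well, and the part of such cells in the fall was not tested.

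**Figure D1:**
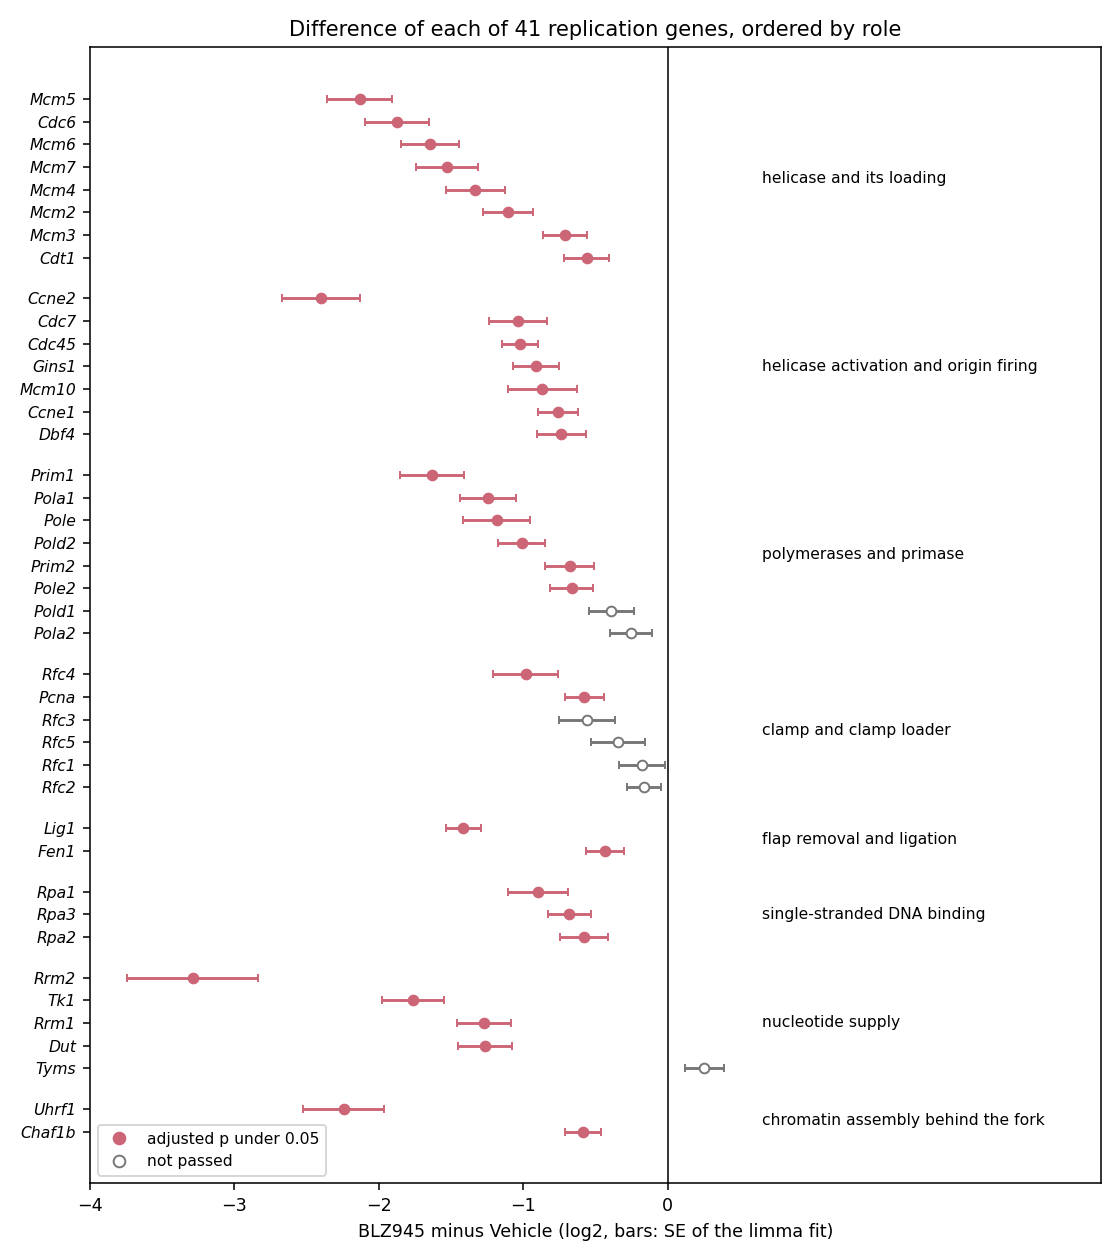
Log2 difference (BLZ945 minus Vehicle, horizontal axis) of each of the 41 members with the standard error of the limma fit, grouped by role. Filled points passed an adjusted p of 0.05 over all genes (34 members, all below 0) and open points did not (7 members, of which 4 are subunits of the clamp loader).

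The first group, the helicase and its loading factors, fell as a whole: 8 of 8 members passed, the groups did not overlap in 5, and the median difference was -1.43. Mcm5, a subunit of the MCM hexamer that unwinds DNA, ran from 6.03 through a median of 6.60 to 7.24 in Vehicle and from 3.88 through 4.51 to 5.56 in BLZ945. The groups were fully apart, and the level fell by 2.13 (SE 0.23, adjusted p = 2.82e-05), or 4.38-fold. Mcm6 ran from 8.26 through 8.76 to 9.44 in Vehicle and from 6.51 through 7.08 to 8.01 in BLZ945. Every BLZ945 mouse was below every Vehicle mouse here too, with a difference of -1.65 (SE 0.20, adjusted p = 0.000113). Mcm7 ran from 8.88 through 9.50 to 10.06 in Vehicle and from 7.09 through 7.97 to 8.65 in BLZ945. The ranges parted again, at a difference of -1.53 (SE 0.21, adjusted p = 0.000237).

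In their brightest probe sets the other hexamer subunits differed by less, but the second probe sets of Mcm4 and Mcm2 differed by -1.77 and -1.86, close to or beyond those of Mcm6 (-1.65 and -1.77). Mcm4 differed by -1.33 (SE 0.20, adjusted p = 0.000518), with 7 of 8 BLZ945 mice below all Vehicle mice. Mcm2 lay between 8.24 and 9.40 in Vehicle and in the narrow range of 7.37 to 7.78 in BLZ945, a difference of -1.10 (SE 0.17, adjusted p = 0.000570) without overlap. Mcm3 was the least changed of the hexamer, at -0.71 (SE 0.15, adjusted p = 0.00605), and its ranges of 8.36 to 9.42 and 7.68 to 8.62 overlapped. The hexamer holds 1 copy of each subunit, and the chosen probe sets of its genes did not move by equal amounts: Mcm5 fell by more than Mcm7, and the difference between them shifted by -0.60 (exact two-sided permutation p = 0.0247, adjusted over 14 pairs 0.0384). That pair passed narrowly, and its adjusted p rose past the threshold, to at most 0.0713, when any of 10 single mice was left out: Vehicle 2, 3, 4, 6 or 8 or BLZ945 1, 2, 3, 7 or 8. Here and in the pairs below, each gene is read by 1 probe set and the permutation p covers the spread among mice. It does not cover unequal response of probe sets, and those of Mcm2 alone differed by -1.10 and -1.86 between the groups.

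The loading factors parted from each other. Cdc6, the ATPase that brings the hexamer to the origin, ran from 5.10 through 5.80 to 6.57 in Vehicle and from 3.30 through 3.99 to 4.70 in BLZ945. The groups did not overlap, and the level fell by 1.87 (SE 0.22, adjusted p = 0.000103), or 3.67-fold. Detection above background is unknown for such low BLZ945 values of Cdc6. Cdt1, its partner in loading, ran from 8.69 through 8.84 to 9.36 in Vehicle and from 7.93 through 8.41 to 8.85 in BLZ945, with overlap. Its difference of -0.56 (SE 0.16, adjusted p = 0.0315) was lost, with adjusted p from 0.0503 to 0.0700, on leaving out Vehicle 4, 6 or 7 or BLZ945 1, 3 or 5. The difference between Cdc6 and Cdt1 shifted by -1.32 (adjusted exact permutation p = 0.000544, which rests on the smallest p the design allows, 0.000155).

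**Figure D2:**
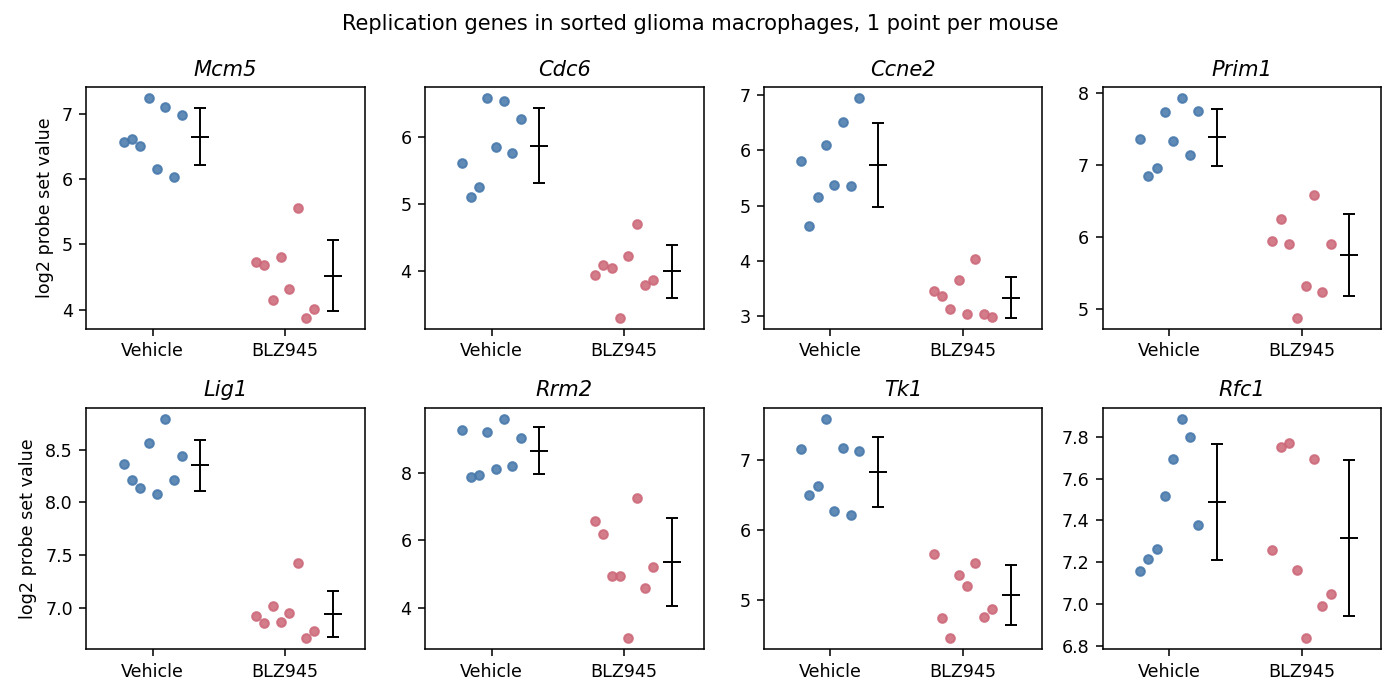
Deposited log2 values (vertical axis, own scale in each panel) of 8 members in every mouse, with the mean and SD of 8 mice beside each group. In Mcm5, Cdc6, Ccne2, Prim1, Lig1, Rrm2 and Tk1 all 8 BLZ945 mice lie below all 8 Vehicle mice, while in Rfc1 the groups overlap.

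Factors that activate the helicase and fire the origin also fell, in 7 of 7 members, with 3 free of overlap and a median of -0.91. Ccne2, which encodes cyclin E2, ran from 4.63 through 5.58 to 6.94 in Vehicle and from 2.99 through 3.25 to 4.02 in BLZ945. The groups did not overlap, and the level fell by 2.40 (SE 0.27, adjusted p = 5.62e-05), or 5.28-fold. Its BLZ945 values lie near the low end of all values, where detection above background is unknown, so the size of the fall is uncertain. Ccne1, encoding the other E cyclin, lay between 5.84 and 6.60 in Vehicle and between 5.24 and 5.96 in BLZ945, with a difference of -0.76 (SE 0.14, adjusted p = 0.00196). The shift of Ccne2 relative to Ccne1 was -1.64 (adjusted exact permutation p = 0.000870), so the probe sets of the E cyclins fell unequally.

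Cdc45, part of the active helicase, ran from 5.67 through 5.98 to 6.40 in Vehicle and from 4.78 through 5.00 to 5.29 in BLZ945, without overlap, and differed by -1.02 (SE 0.12, adjusted p = 0.000113). Gins1, a subunit of the GINS complex that completes the same helicase, differed by -0.91 (SE 0.16, adjusted p = 0.00151), with 6 of 8 BLZ945 mice below all Vehicle mice. For the kinase that fires origins, the catalytic Cdc7 differed by -1.04 (SE 0.20, adjusted p = 0.00328) without overlap and its activator Dbf4 by -0.74 (SE 0.17, adjusted p = 0.0115). The pair Cdc7 and Dbf4 was not shown to change unequally (shift of -0.30, adjusted exact permutation p = 0.243). A second, dimmer Cdc7 probe set differed by -0.07, with no call. Mcm10, a scaffold of origin firing, ran from 4.97 through 5.93 to 6.66 in Vehicle and from 4.35 through 5.04 to 5.40 in BLZ945. The groups overlapped in all but 2 BLZ945 mice, and the difference of -0.87 (SE 0.24, adjusted p = 0.0308) was lost, at 0.0531 to 0.0661, without Vehicle 1, 4, 6 or 8 or BLZ945 2, 5 or 8.

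Among polymerases and primase 6 of 8 members fell, 3 without overlap, with a median of -0.84. Prim1, the catalytic subunit of primase, which makes the RNA primer, ran from 6.85 through 7.35 to 7.92 in Vehicle and from 4.87 through 5.90 to 6.58 in BLZ945. The groups were apart, and the level fell by 1.63 (SE 0.22, adjusted p = 0.000211), to 32.3% of Vehicle. Prim2, its regulatory subunit, lay between 6.11 and 6.99 in Vehicle and between 5.34 and 6.24 in BLZ945 and differed by -0.68 (SE 0.17, adjusted p = 0.0166), while its second probe set, at -0.49, did not pass (0.182). Pola1, the catalytic subunit of polymerase alpha, ran from 6.24 through 6.64 to 7.28 in Vehicle and from 4.68 through 5.55 to 5.95 in BLZ945. It fell by 1.25 (SE 0.19, adjusted p = 0.000562) without overlap. Pola2, the second subunit of the same enzyme, ran from 6.25 through 6.48 to 6.97 and from 5.86 through 6.29 to 6.77, which overlap widely, and at -0.25 (SE 0.14, adjusted p = 0.308) it did not pass.

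In the chosen probe sets, the subunit pairs of the polymerases therefore moved unequally in several cases. Pola1 shifted by -0.99 relative to Pola2 (adjusted exact permutation p = 0.00653), and Prim1 by -0.95 relative to Prim2 (0.000544). In polymerase delta, which extends the lagging strand, the accessory Pold2 fell by 1.01 (SE 0.16, adjusted p = 0.000759) without overlap. The catalytic Pold1 differed by -0.39 (SE 0.15) and did not pass (adjusted p = 0.137), and the difference Pold1 minus Pold2 shifted by 0.62 (adjusted exact permutation p = 0.00707). Catalytic and accessory subunits thus had no common order, since the catalytic subunit fell more in polymerase alpha and primase and less in polymerase delta. In polymerase epsilon, which extends the leading strand, Pole differed by -1.18 (SE 0.23, adjusted p = 0.00323) and Pole2 by -0.66 (SE 0.15, adjusted p = 0.00961). Their shift of 0.52 did not pass (adjusted exact permutation p = 0.0971) but did after a repeated quantile normalization (0.61, 0.0359) and without BLZ945 7 (0.65, 0.0322).

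The clamp and clamp loader had the smallest median difference of the 8 roles, -0.45, with 2 of 6 members past the test and 0 without overlap. Pcna, the sliding clamp that holds polymerases on DNA, ran from 10.79 through 11.17 to 11.63 in Vehicle and from 10.36 through 10.71 to 10.90 in BLZ945. It fell by 0.58 (SE 0.13, adjusted p = 0.0110), or 1.49-fold, and 6 of 8 BLZ945 mice were below all Vehicle mice. Rfc4, a small subunit of the loader that opens the clamp, ran from 5.67 through 6.65 to 7.21 and from 4.82 through 5.71 to 6.16, overlapped, and fell by 0.98 (SE 0.22, adjusted p = 0.0104).

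The other 4 loader subunits did not pass. Rfc1, the large subunit, ran from 7.16 through 7.45 to 7.89 in Vehicle and from 6.83 through 7.21 to 7.77 in BLZ945, a difference of -0.18 (SE 0.16, adjusted p = 0.521). Rfc2 differed by -0.16 (adjusted p = 0.413), Rfc5 by -0.34 (adjusted p = 0.283) and Rfc3 by -0.56 (adjusted p = 0.0888). Within this complex the change in the chosen probe sets was therefore uneven. Rfc4 shifted by -0.81 relative to Rfc1 (adjusted exact permutation p = 0.00707), while the shift of -0.39 of Rfc3 relative to Rfc1 did not pass (0.201).

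Behind the polymerases, both members for flap removal and ligation fell. Lig1, the ligase that seals Okazaki fragments, ran from 8.08 through 8.29 to 8.79 in Vehicle and from 6.71 through 6.89 to 7.43 in BLZ945. The ranges were well apart, and the level fell by 1.41 (SE 0.12), with the smallest adjusted p of the members, 8.26e-06. Fen1, the nuclease that trims the flaps, lay between 9.15 and 9.91 in Vehicle and between 8.90 and 9.33 in BLZ945 and differed by -0.43 (SE 0.13, adjusted p = 0.0494). That call was lost on leaving out any of 13 mice, at 0.0507 to 0.101, and held only without Vehicle 3, 5 or 7. The shift of Fen1 relative to Lig1 was 0.98 (adjusted exact permutation p = 0.000544). The size differed between probe sets, since the other, dimmer Fen1 probe set fell by 1.29 (adjusted p = 0.000383 over all single-symbol probe sets).

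The trimer that coats single-stranded DNA fell in 3 of 3 members, all with overlapping groups and with a median of -0.68. Rpa1, the large subunit, ran from 8.90 through 9.55 to 10.01 in Vehicle and from 7.82 through 8.70 to 9.19 in BLZ945, a difference of -0.90 (SE 0.21, adjusted p = 0.0108). Rpa3, the smallest subunit, differed by -0.68 (SE 0.15, adjusted p = 0.00718), with 7 of 8 BLZ945 mice below all Vehicle mice. Rpa2, the middle subunit, differed by -0.58 (SE 0.17, adjusted p = 0.0383), and the call was lost, at 0.0520 to 0.0796, without Vehicle 3, 4, 5, 6 or 8 or BLZ945 1, 4, 5, 7 or 8. A second Rpa2 probe set differed by -0.22 and did not pass (adjusted p = 0.581). The subunits were not shown to change unequally, with shifts relative to Rpa1 of 0.32 for Rpa2 (adjusted exact permutation p = 0.0971) and 0.22 for Rpa3 (0.299). The first of these passed without BLZ945 6 (0.39, 0.0446) and when all probe sets of a gene were averaged (0.52, 0.00892).

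Nucleotide supply held the largest fall of all members, and 4 of its 5 members passed, all 4 without overlap. Rrm2, the S-phase subunit of ribonucleotide reductase, ran from 7.86 through 8.61 to 9.58 in Vehicle and from 3.12 through 5.09 to 7.24 in BLZ945. The means were 8.64 ± 0.69 and 5.36 ± 1.29 (SD, n = 8 each), and the level fell by 3.29 (SE 0.45, adjusted p = 0.000231), or 9.75-fold. The BLZ945 mice differed among themselves by more in Rrm2 than the Vehicle mice did. All 3 Rrm2 probe sets were lower, with differences of -3.29, -3.09 and -1.42.

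Rrm1, the large subunit of the same enzyme, ran from 7.89 through 8.08 to 8.88 in Vehicle and from 6.24 through 6.93 to 7.51 in BLZ945, and fell by 1.27 (SE 0.19, adjusted p = 0.000389) without overlap. In the chosen probe sets, Rrm2 shifted by -2.02 relative to Rrm1 (adjusted exact permutation p = 0.000544). That was the widest shift of the 14 pairs compared. With all probe sets of a gene averaged, the shift of Rrm2 was smaller but still passed. The shift of Ccne2 relative to Ccne1 was then the widest. Tk1, the cytosolic thymidine kinase of S phase, ran from 6.21 through 6.88 to 7.58 and from 4.45 through 5.03 to 5.65, and fell by 1.76 (SE 0.21, adjusted p = 0.000113). Dut, which removes dUTP so that uracil is not built into DNA, ran from 5.87 through 6.43 to 7.19 and from 4.82 through 5.26 to 5.66, and fell by 1.26 (SE 0.19, adjusted p = 0.000420). In both genes all 8 BLZ945 mice were below all Vehicle mice.

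Tyms, thymidylate synthase, was the 1 member above 0, at 0.25 (SE 0.14, adjusted p = 0.283). Its values, 2.65 to 3.24 in Vehicle and 2.92 to 3.88 in BLZ945, lie at the low end of a table whose lowest value is 1.83. The other 2 Tyms probe sets with that symbol alone had means of 3.17 and 2.71 over the arrays, so all 3 lie near that end. A further probe set that carries Tyms among several symbols was not used.

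Both factors of chromatin assembly fell without overlap. Uhrf1, which recognises hemimethylated DNA and brings the maintenance methyltransferase to it, ran from 6.28 through 7.15 to 7.93 in Vehicle and from 3.86 through 4.88 to 5.68 in BLZ945. It fell by 2.24 (SE 0.28, adjusted p = 0.000121), or 4.73-fold. Chaf1b, a subunit of the chaperone that deposits histones at the fork, lay between 5.03 and 5.63 in Vehicle and between 4.34 and 4.96 in BLZ945, a smaller difference of -0.59 (SE 0.13, adjusted p = 0.00694).

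Seen per mouse, the mean over a role's members separated the groups fully in most roles. For the helicase and its loading the means lay between 7.74 and 8.77 in Vehicle and between 6.56 and 7.38 in BLZ945. For polymerases and primase they lay between 6.49 and 7.04 and between 5.55 and 6.16, and for nucleotide supply between 6.25 and 7.08 and between 4.76 and 5.78. Activation and firing, flap removal and ligation, and chromatin assembly were likewise free of overlap. The clamp and clamp loader means overlapped, at 7.48 to 8.16 and 7.11 to 7.78, and so did those of single-stranded DNA binding, at 7.28 to 8.02 and 6.51 to 7.40. The mean differences were -1.36 for the helicase, -0.88 for polymerases, -0.47 for the clamp and its loader and -1.46 for nucleotide supply. These are descriptions, and no test between roles was run. The 14 pairs, of which 9 passed, each compare partners within 1 role. In the 4 against 4 mice of 11.29 weeks the smallest exact p possible is 0.0286 before adjustment, so a call lost there says little about stability, and 0 pairs passed (smallest adjusted p 0.0667). The shifts in those mice were -1.46 for Rrm2 and Rrm1, -1.56 for Ccne2 and Ccne1, -0.94 for Pola1 and Pola2, -1.18 for Cdc6 and Cdt1, and 0.93 for Fen1 and Lig1.

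**Figure D3:**
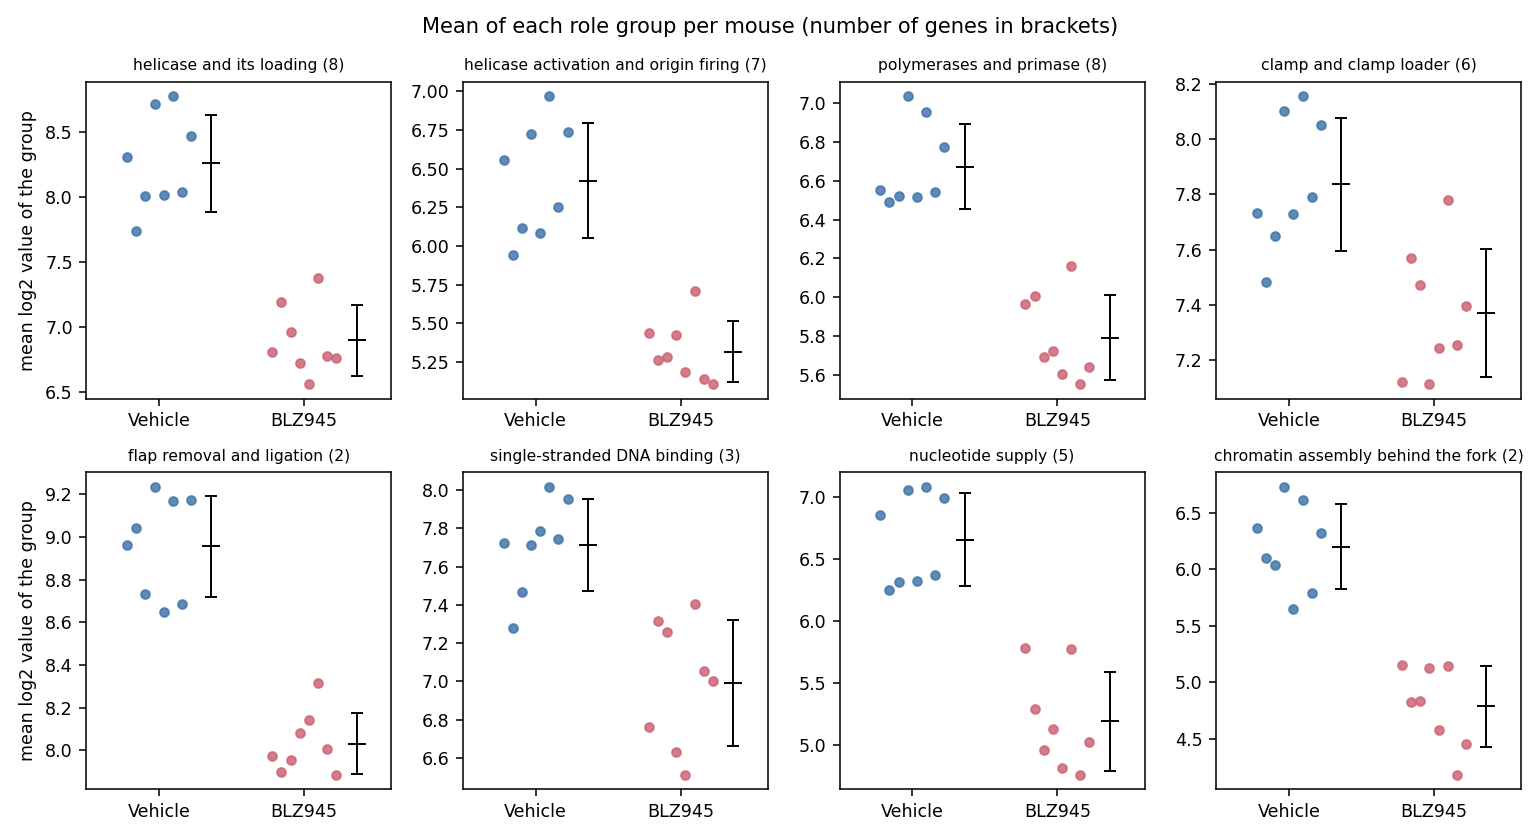
Mean log2 value over the members of each role (vertical axis, own scale in each panel) in every mouse, with the mean and SD of 8 mice beside each group. The groups are apart in 6 roles and overlap for the clamp and clamp loader and for single-stranded DNA binding.

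Some mice stood at the end of their group in many members. Among the 34 members that fell, Vehicle 6 was the highest Vehicle mouse in 19 and Vehicle 2 the lowest in 20. In the BLZ945 group BLZ945 6 was the highest in 16 and BLZ945 7 the lowest in 10. The mean over all 41 members ran from 6.92 to 7.67 in Vehicle and from 6.00 to 6.66 in BLZ945.

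Other replication genes, 64 in a separate list chosen by function, were measured in 52 cases. Of these, 22 fell, 0 rose and 30 did not pass, with a median of -0.32. Over all genes 5.34% fell and 2.6% rose, with a median of 0.07, and the counts by role below stand beside the same shares. For origin recognition and licensing control only Orc6 (-0.87, adjusted p = 0.000599) and Gmnn, the inhibitor of CDT1 (-0.84, adjusted p = 0.0201), fell among 9 genes. Orc1, the ATPase of the origin recognition complex, was near the low end of the table, at 3.29 ± 0.26 and 2.98 ± 0.16 (SD, n = 8 each), and did not pass (adjusted p = 0.121). Of the firing factors and fork protection genes, 6 of 9 fell. Tipin, which stabilises stalled forks, fell by 1.32 and Topbp1, an activator of origin firing, by 1.24. Top2a, which untangles the copied strands, fell by 2.40 (8.83 ± 0.65 to 6.43 ± 1.17, SD, n = 8 each, adjusted p = 0.00132).

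Of other polymerase subunits and alternative clamp loaders 2 of 7 fell, the nuclease Exo1 (-0.98) and the epsilon subunit Pole3 (-0.41). Of other nucleotide enzymes 3 of 10 fell, the CTP synthase gene Ctps (-0.80), the nucleotide pool cleaner Dctpp1 (-0.61) and the deoxycytidine kinase gene Dck (-0.997). Rrm2b, the subunit that pairs with RRM1 outside S phase, was at 7.13 ± 0.20 in Vehicle and 7.17 ± 0.41 in BLZ945 (SD, n = 8 each, difference 0.05, adjusted p = 0.869). Samhd1, which degrades deoxynucleotides in resting macrophages, differed by 0.17 with wide spread in both groups (SE 0.45, adjusted p = 0.835). So within ribonucleotide reductase Rrm2 and Rrm1 fell, and no change was detected for Rrm2b.

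Of histone chaperones and maintenance methylation 5 of 7 fell, among them Dnmt1, the maintenance methyltransferase that UHRF1 recruits (-0.91, adjusted p = 0.000488), and the histone chaperone Nasp (-0.995, adjusted p = 0.0242). Of E2F and pocket proteins 4 of 10 fell. E2f8, an atypical repressor E2F that is itself induced in S phase, fell by 1.44 (adjusted p = 0.00111) without overlap, and Tfdp1, the dimer partner of the E2Fs, by 0.79 (adjusted p = 0.00228). E2f6 (-0.47, adjusted p = 0.0395) and Rbl1, a pocket protein gene (-0.60, adjusted p = 0.0492), fell as well. The activator E2f1 (-0.27, adjusted p = 0.298), E2f4 (0.33, adjusted p = 0.300) and Rb1, the retinoblastoma gene (0.04, adjusted p = 0.889), did not pass.

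The sorted samples carried the macrophage transcripts their label implies. Csf1r, the target of the drug, was at 13.61 ± 0.14 in Vehicle and 13.66 ± 0.12 in BLZ945 (SD, n = 8 each, adjusted p = 0.730). The summed linear level of 12 macrophage and microglia markers ran from 64241 to 86942 in Vehicle and from 68830 to 80288 in BLZ945, and 1 of the 12, Itgam, which encodes the CD11b used in the sort, was lower (-1.17, adjusted p = 0.00807). Transcripts of glioma cells and their precursors were present too, and some of them moved with the groups. Of 11 measured markers 5 fell, where 5.34% of all genes did: Pdgfra, Olig1, Olig2, Fabp7 and Ptprz1, the first by 2.71 (adjusted p = 0.000441). Of the rest, none of which passed, Sox2 (-1.32, adjusted p = 0.0581), Bcan (-0.22) and Sox10 (-0.07) lay below 0. Cspg4 (0.44), Nes (0.12) and Dll3 (0.11) lay above 0. Some of these markers were named after their values were seen. Pdgfra ran from 7.71 to 10.51 in Vehicle and from 4.99 to 7.14 in BLZ945, so its groups did not overlap, while those of every other marker did. The summed level of all 11 ran from 886 to 3804 in Vehicle and from 429 to 1573 in BLZ945. The part of glioma cells in the fall of the replication genes was not tested.

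The mice at the ends of that sum were as follows. BLZ945 6 had the lowest glioma marker sum of all mice (8.74 as log2) and the highest member mean of the BLZ945 group (6.66). BLZ945 4 had the highest sum of its group (10.62) with a member mean of 6.15. Its Pdgfra level was 5.74, below that of BLZ945 2 (7.14), so the sum does not follow Pdgfra alone. Vehicle 7 had the lowest sum of its group (9.79) with a member mean of 7.10, and Vehicle 6 the highest sum (11.89) with the highest member mean (7.67). Of the lists for oligodendrocytes, neurons, T cells, B cells, natural killer cells, neutrophils, endothelium and pericytes, and red cells, 0 members were called in limma, and of 6 astrocyte markers 1, Gja1, was lower. Gzma, on the natural killer list, was higher by 1.83 (SE 0.56) and just missed the threshold (adjusted p = 0.0506). Of the others on that list, Ncr1 (0.41), Prf1 (0.42) and Eomes (0.40) lay above 0 and Klrk1 (-0.65) below, all without a call. The median difference was 0.41 on that list, 0.31 on the T cell list and from -0.11 to 0.17 on the others.

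**Figure D4:**
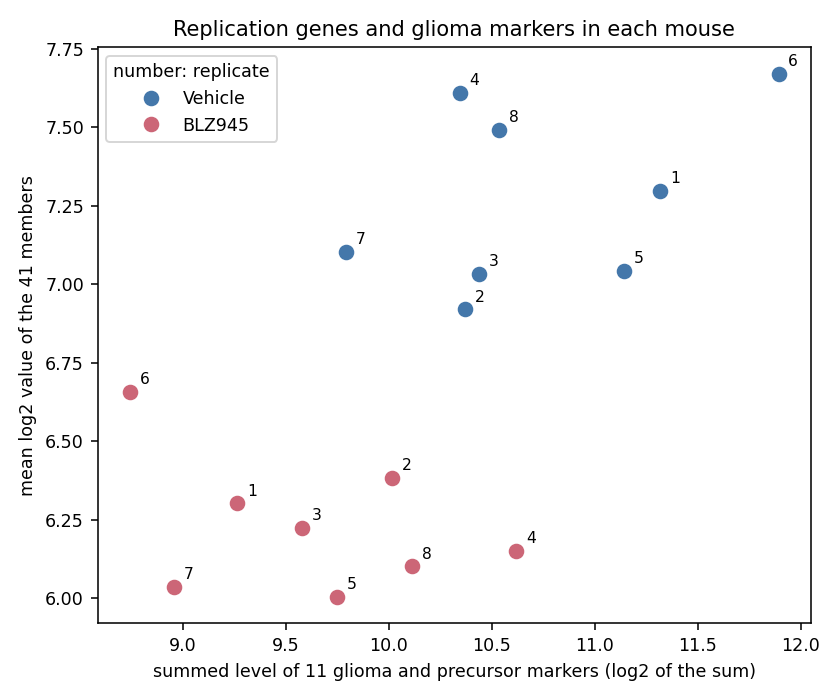
Mean log2 value of the 41 members (vertical axis) against the log2 of the summed level of 11 glioma and precursor markers (horizontal axis), 1 point per mouse, numbered by replicate. All BLZ945 mice lie below all Vehicle mice on the vertical axis, while the groups overlap on the horizontal one. For Pdgfra alone, 1 of the 11 markers, the groups did not overlap.

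Age and tumour volume were not balanced between the groups, and the number of calls moved with each. At 11.29 weeks, the 1 age that both groups share, with 4 mice each, 40 of 41 members were below 0. The median was -0.81 against 0.06 over all genes. Only 6 passed limma there, Mcm6, Cdc6, Ccne2, Pola1, Prim1 and Lig1, where 0.629% of all genes were called lower. In this subset Rrm2 differed by -2.53 and Mcm5 by -1.85. With age cohort as a covariate 19 members passed (1.56% of all genes), 20 without the BLZ945 mice of 13.14 weeks (1.41%) and 20 in mice younger than 12 weeks (1.34%). With same-numbered mice as a block, although the numbers do not pair the mice, 32 passed (4.55%). With labelled volume as a covariate, in the 6 Vehicle and 8 BLZ945 mice that have one, 0 passed (0.0888% of all genes). In that fit 38 members were below 0, with a median of -0.80 against 0.12 over all genes. The volume ranges of the groups share no value, so volume and agent cannot be told apart.

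**Figure D5:**
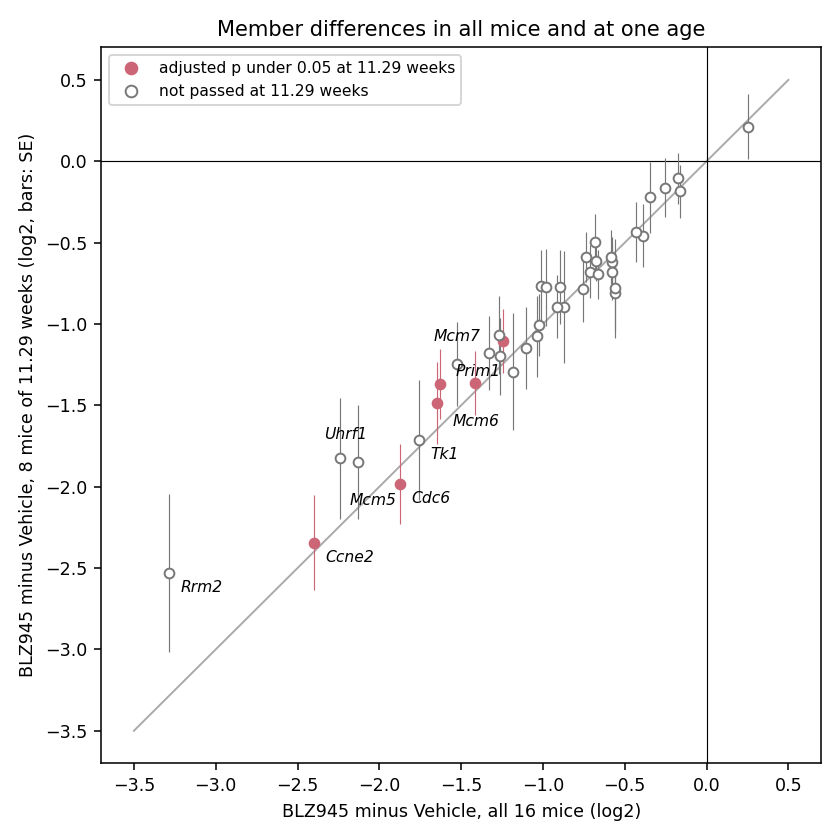
Log2 difference of each member in the 8 mice of 11.29 weeks (vertical axis, bars are SE) against that in all 16 mice (horizontal axis), which include those 8; the grey line marks equal values. Filled points are the 6 members that passed at 11.29 weeks, and 40 of 41 members lie below 0 on both axes.

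With sex as a covariate 33 members were lower (share of all genes not given here), Fen1 being lost. Females alone, 4 against 5, gave 25 members lower (2.19% of all genes) with a median of -1.13. Males alone, 4 against 3, gave 0 in limma (0.0161% of all genes). In males 39 of 41 members were below 0, with a median of -0.72 against 0.02 over all genes. The interaction of sex and agent, which tests that difference, called 0 members and 0% of all genes in limma, with 4 members and 3.34% of all genes at an unadjusted p under 0.05 and a smallest adjusted p of 0.983. Of its 41 estimates 37 were below 0, toward a larger fall in females, with a median of -0.42 against 0.05 over all genes. The sexes also did not differ in any member beyond the threshold with the agent as covariate (limma, 0 called, where 0.0242% of all genes were lower and 0.00807% higher in females, and 1 member and 9.80% of all genes at an unadjusted p under 0.05).

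Within the BLZ945 group the 4 mice of 13.14 weeks were compared with the 4 of 11.29 weeks. In limma 0 members passed, where 0.0403% of all genes were called lower (smallest adjusted p 0.141, for Prim2), 13 had an unadjusted p under 0.05 and 33 of 41 were lower in the older mice, with a median of -0.30 against 0.05 over all genes. An unadjusted p under 0.05 was reached by 18.7% of all genes in this comparison. Prim2 lay between 6.14 and 6.24 in the younger mice and between 5.34 and 5.74 in the older, and every older mouse was also below every younger one in Mcm2, Mcm4, Mcm7, Dbf4, Rfc1, Rfc4 and Rrm1. These are 8 of 41 members, against 4.43% of all genes, in a comparison in which no member passed. Rrm2 differed by -1.77 (4.96 to 7.24 against 3.12 to 5.21, adjusted p = 0.173). The slope on labelled volume within BLZ945 called 0 members and 0% of all genes in limma, with 5 members and 6.83% of all genes at an unadjusted p under 0.05, and 25 of 41 slopes were below 0.

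Probe sets of 1 gene differed in how far they fell and in whether they were called. Of the 24 members with several single-symbol probe sets, all were lower in 10, some in 9 and none in 5, and 0 had a probe set called higher. Uhrf1's second probe set fell by 0.89. The dimmest probe sets of Cdt1 (0.14), Dbf4 (0.06) and Mcm3 (0.19) lay above 0, and the second Dut probe set was at -0.14, all without a call. Mcm10's second, dimmer probe set differed by 0.21 (adjusted p = 0.322), and the Mcm10 call was lost when its probe sets were averaged (-0.33, adjusted p = 0.171).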

How the data were processed

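The authors' deposited values are log2, 1 per probe set and array. Per the submitters' processing notes, GCOS 1.4 and RMA were used; the RMA implementation is not given in the sources used here. This method is known to shrink differences of dim probe sets, which can understate their changes. These values were analysed without rescaling. Scanner files were not analysed here, so detection above background is unknown. Precision is limited by the number of arrays.

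Of 22690 probe sets, 20393 carried exactly 1 symbol in the platform annotation, 691 several and 1606 none, and 20364 of the first were found by identifier in a RefSeq table. Probe sets with several symbols named no gene. Each of 12394 genes was tested in its brightest probe set with limma (version 3.58.1, R 4.3.3; lmFit, then eBayes, without covariates or filter), adjusted by Benjamini-Hochberg over all genes, with a threshold of 0.05. Every adjusted p of a single gene is limma's unless called exact, and the standard errors are those of the fit. Differences between partners were tested by exact two-sided permutation over mice, adjusted over 14 measurable pairs of 15 listed. The fit was tested on simulated data. The highest correlation between arrays was 0.991, so none was counted as a repeat. Arrays are labelled as separate mice.

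Members and lists were chosen with earlier results of these data known. All members are named. Of the other replication genes those past the threshold could be named, along with 8 fixed ones, and of the markers the brightest, Pdgfra, Olig2 and Csf1r. Other markers were named after their values were seen. Same-numbered mice of the groups correlated at -0.48 to 0.39, so the numbers pair nothing. The ratio of 3' to 5' signal of Actb was 1.02 ± 0.21 in Vehicle and 1.26 ± 0.41 in BLZ945 on the log2 scale (SD, n = 8 each, exact permutation p = 0.172). For Gapdh it was 0.57 ± 0.20 and 0.67 ± 0.39 (SD, n = 8 each, exact permutation p = 0.578). BLZ945 2 had the highest ratio of all mice in both, 2.11 for Actb and 1.51 for Gapdh, and without it 32 members were lower. Alternatives covered probe sets, dim genes, normalization, eBayes settings, array weights, covariates, subsets of mice, the replicate block and each mouse left out.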

Additional observations from a re-analysis of the deposited data

Results flagged for a closer look

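In 3 of 82 combinations of member and group, 1 mouse lay far from the other 7 of its group for the group's range, where chance gives about 1 in 20. Mcm2 in BLZ945 8 was at 7.369, with the nearest mouse at 7.597. Rfc3 in BLZ945 1 was at 4.984, with the nearest at 5.807. Lig1 in BLZ945 6 was at 7.426, with the nearest at 7.014.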

How the results depend on the processing

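The 34 members lower became 18 of 23 with genes under the median mean left out, which tests fewer genes, 19 with age cohort as covariate, 6 at 11.29 weeks, and 0 in males and with labelled volume as covariate. Among alternatives chosen after seeing the data, 20 were lower without the BLZ945 mice of 13.14 weeks and 20 in mice younger than 12 weeks. With 1 mouse left out at a time the count was 30 to 33 lower and 0 higher, that of the other replication genes 19 to 22 lower and 0 higher, and that of unequal pairs 8 to 10. At 11.29 weeks 2 other replication genes were lower, where 0.629% of all genes were. There 0 pairs passed (smallest adjusted exact permutation p 0.0667), and 4 against 4 mice allow no exact p under 0.0286 before adjustment. Shifts such as that of Cdc6 and Cdt1 were near those in all mice (-1.18 against -1.32). These alternatives differ in the mice, covariates or genes used, and the cause of the changes in count was not tested. No share of all genes is given for the setting without dim genes or for single mice left out.

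The numbers do not pair the mice: 1 of 8 correlated best with its own number. With a replicate block 32 members were lower, Fen1 (adjusted p = 0.0993) and Rpa2 (0.0922) being lost. Signs turned in Rfc1 (0.0345 with array SD as covariate, 0.129 without the BLZ945 mice of 13.14 weeks, 0.0283 under 12 weeks), in males for Rfc2 (0.0204), Rfc5 (0.107) and Tyms (-0.0363), and with volume as covariate for Pola2 (0.72, adjusted p = 0.0794) and Fen1 (0.0905), the latter 1 of the 34. The causes were not tested. With all probe sets of a gene averaged Mcm10 (-0.33, adjusted p = 0.171) and Rpa2 (-0.40, 0.200) were lost, and with the probe set of largest spread Prim2 (-0.49, 0.188) and Rpa2 (-0.22, 0.577). Fen1 was also lost under a repeated quantile normalization (0.162), median centring (0.0683) and sex as covariate (0.0560), and Rpa2 with array SD as covariate (0.0701). Detection above background is unknown for dim members such as Tyms, and for low BLZ945 values such as those of Ccne2, Cdc6 and the lowest Rrm2 mice.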
